A study of Homo sapiens with 3 samples.

Results

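The mature miRNAs of the subclone labelled as reaching both the lung and the celiac lymph nodes (subclone2) were compared with those of the subclone labelled as specific to the lung (subclone1). The comparison used 2 of the 3 libraries of the study, 1 for each subclone, and asked which miRNAs differed between the strain with lymph node metastasis and the strain without it. All miRNA names with a mean of at least 10 CPM (the count scaled to a sum of 1e+06 in its library) over both libraries were kept, whatever their ratio. This left 191 of 1921 listed names, which held 99.9% of the counts of either subclone.

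All 3 strains were labelled as HCCLM3, a human hepatocellular carcinoma (HCC) line, and were grown in DMEM. The study describes its parental cells as HCCLM3 carrying red fluorescent protein, and its subclones as single-cell descendants of lung or lymph node metastases that these cells formed in nude mice. The labels do not say which descendant each library came from, and a line grown from 1 cell stands for that cell only. The parent library was labelled with low metastasis, whereas the study describes its parental cells as highly metastatic, so the label is used here as a name only. It is given beside the subclones as a value and enters no ratio here except where stated. RNA came from cells in culture, not from metastases, so the values describe the strains as grown in vitro.

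The total was 3570864 counts in subclone1, 4568075 in subclone2 and 7902438 in the parent library. In subclone1 670 names were detected and in subclone2 675, of which 565 were detected in both. With 1 library a side there was no spread between replicates to test against, and no p-value is given. A miRNA was called when its ratio was at least 2-fold and the exact 95% interval of the ratio excluded 1. Such a call compares these libraries and not the metastatic conditions. The intervals cover counting error only, since 1 library a side shows no spread between replicates. The reads carry no molecular identifiers, which is a further limit on the counts.

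The labelled cell type was checked against preset marker miRNAs. The hepatocyte marker hsa-miR-122-5p held 19 counts in subclone1 and 18 in subclone2 (5.32 and 3.94 CPM), under the minimum level, and both arms of miR-885 held 0. Of 11 listed epithelial markers 6 were detected, and hsa-miR-200a-3p, hsa-miR-200b-3p and hsa-miR-200c-3p were kept, at 24.1 to 61.1 CPM. Markers of endothelium, of fibroblasts and smooth muscle, and most of those of blood cells lay at or near 0. The endothelial list summed to 2.24 CPM in subclone1 and 0.438 in subclone2, and the fibroblast list to 4.48 and 4.16 CPM. The fibroblast sum includes both hsa-miR-199a-3p and hsa-miR-199b-3p, which held identical counts (6 in subclone1 and 9 in subclone2) and may be 1 measurement. The blood cell strand hsa-miR-486-5p and the muscle miRNA hsa-miR-1 were kept and are described with the results. Of the nervous system list hsa-miR-128, which many tissues express, held 1596 CPM in subclone1 and 1205 in subclone2, while miR-124 and miR-9 held at most 4 counts a strand. The defining hepatocyte miRNAs were thus near or at 0, and the cells are called here by their line.

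A miRNA is cut from a hairpin precursor, which yields a strand from its 5′ side (5p) and one from its 3′ side (3p). The dominant strand is loaded into an Argonaute protein and guides it to messenger RNAs, mainly by pairing of the seed, bases 2 to 8 from the 5′ end. MiRNAs with the same seed form a family with shared targets, and miRNAs whose hairpins lie close together on a chromosome are often transcribed as 1 unit. In HCC several of these molecules are known from work on invasion, hypoxia and the epithelial state.

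The sequences below are those of the called miRNAs together with their nearest relative or their partner arm, because the contrast between such pairs carries most of what follows. They are RefSeq mature sequences (GRCh38.p14), 5′ to 3′, with the seed in capitals. The first pair shares its seed and 18 consecutive bases, and the second pair its seed and 17 bases.
hsa-miR-215: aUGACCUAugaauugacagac
hsa-miR-192-5p: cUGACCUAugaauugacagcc
hsa-miR-146a-5p: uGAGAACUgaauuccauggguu
hsa-miR-146b-5p: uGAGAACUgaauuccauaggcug
hsa-miR-378c: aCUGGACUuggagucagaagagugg
hsa-miR-378a-3p: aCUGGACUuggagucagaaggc
hsa-miR-152: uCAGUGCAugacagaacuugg
hsa-miR-148b-3p: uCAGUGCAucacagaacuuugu
hsa-miR-625-3p: gACUAUAGaacuuucccccuca
hsa-miR-625-5p: aGGGGGAAaguucuauagucc
hsa-miR-1307-5p: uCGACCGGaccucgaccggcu
hsa-miR-1307-3p: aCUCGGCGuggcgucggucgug
hsa-miR-15b-3p: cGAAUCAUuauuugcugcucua
hsa-miR-15b-5p: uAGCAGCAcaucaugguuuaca
hsa-miR-1: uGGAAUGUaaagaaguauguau
hsa-miR-210: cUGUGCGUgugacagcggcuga
hsa-miR-331-3p: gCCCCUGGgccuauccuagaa

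The hsa-miR-378c and hsa-miR-378a-3p sequences share 20 consecutive bases, whereas hsa-miR-152 and hsa-miR-148b-3p share 9. How the authors divided reads that fit more than 1 name is not given in the sources used here. Therefore, names that share at least 15 consecutive bases with another kept name, 32 of the 191, are uncertain. Among the called miRNAs these are hsa-miR-215, hsa-miR-146a-5p and hsa-miR-378c. The name hsa-miR-1254 was called without a matched sequence.

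Most miRNAs differed little between the subclones. Of the 191 kept, 107 lay within 1.25-fold, 48 between 1.25-fold and 1.5-fold, 25 between 1.5-fold and 2-fold, and 11 (5.76%) were called. Of the called miRNAs 3 (1.57% of the kept) were higher in subclone2, namely hsa-miR-625-3p, hsa-miR-146a-5p and hsa-miR-215. The 8 lower in subclone2 (4.19%) were hsa-miR-1, hsa-miR-15b-3p, hsa-miR-152, hsa-miR-210, hsa-miR-331-3p, hsa-miR-378c, hsa-miR-1254 and hsa-miR-1307-5p. All 11 were of low to middle abundance, and together held 0.0633% of the counts of subclone1 and 0.0435% of those of subclone2. For hsa-miR-625-3p, hsa-miR-1, hsa-miR-15b-3p, hsa-miR-378c, hsa-miR-1254 and hsa-miR-1307-5p the lower library was under 10 CPM, so these passed the minimum only through the library in which they were high. The same held for the uncalled hsa-miR-19b-3p, hsa-miR-194-3p, hsa-miR-301a-5p, hsa-miR-486-5p, hsa-miR-548x-3p and hsa-miR-3934. When both libraries had to reach the minimum, 179 names and 5 calls were left.

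**Figure D1:**
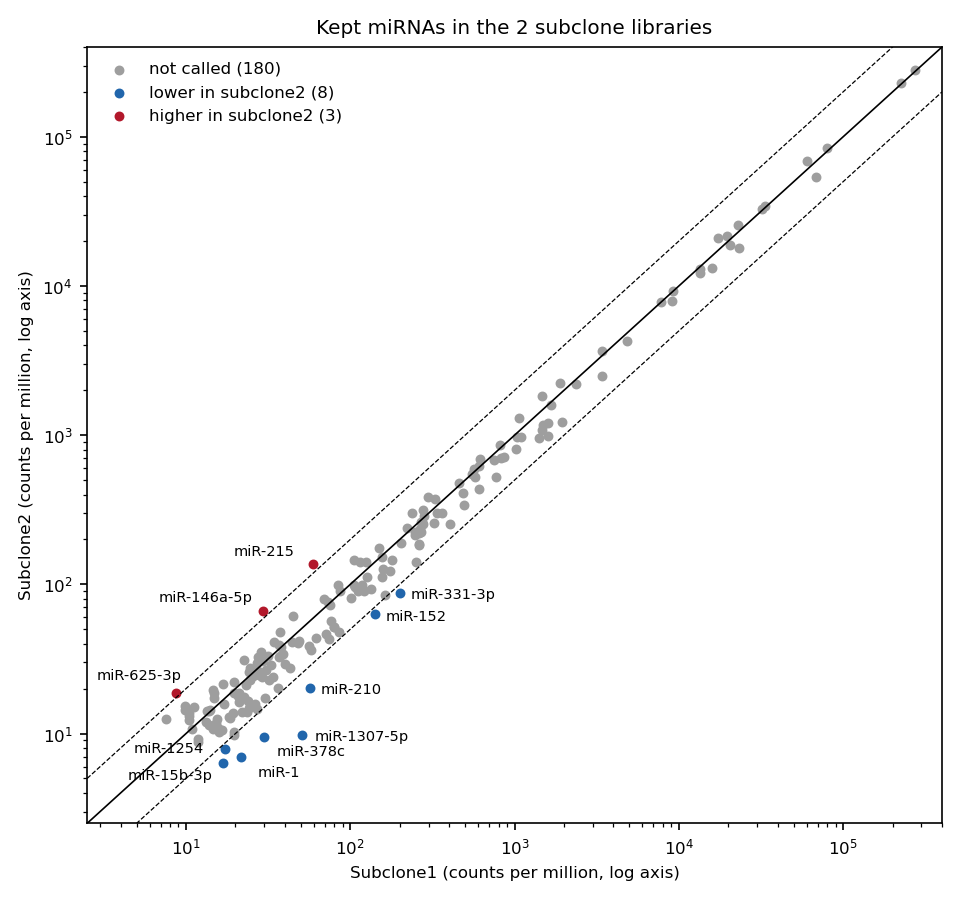
Each point is 1 of the 191 kept miRNAs, with its CPM in subclone1 on the x axis and in subclone2 on the y axis (both log axes). The solid line marks equal levels and the dashed lines 2-fold. The 3 miRNAs called higher in subclone2 and the 8 called lower are coloured and named, and the most abundant of them, hsa-miR-331-3p, lies at 202 CPM in subclone1 and 87.8 CPM in subclone2.

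The median log2 ratio of subclone2 to subclone1 over the kept miRNAs was -0.17, with 64 ratios above 0 and 127 below. This centre depended on the scaling. Relative to scaling by the library total, all log2 ratios moved up by 0.19 with TMM factors, by 0.24 with median-of-ratios size factors and by 0.14 with the total without the 10 most abundant miRNAs. With median-of-ratios factors 111 ratios of 192 kept lay above 0 and 81 below, and the calls were 3 higher and 5 lower. Since a scaling moves all ratios by the same amount, positions relative to the median of all kept miRNAs are nearly unaffected by it, and families are described by them. In bulk RNA, fewer cells with a miRNA and less of it per cell cannot be told apart.

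Counting error set how much could be seen at each level. Among the 34 miRNAs of at least 1000 CPM the intervals of the log2 ratio had a median width of 0.04, and none of these miRNAs was called. Their ratios ran from -0.68 for hsa-miR-27a-3p to 0.33 for hsa-miR-320b. Of the 56 between 100 and 1000 CPM 2 were called, hsa-miR-152 and hsa-miR-331-3p. The other 9 were among the 101 between 10 and 100 CPM, where the median width was 0.87. In all 114 intervals (59.7%) excluded 1, of which 30 lay above and 84 below it, so for most miRNAs the libraries differed by more than counting error while the size stayed under 2-fold. Those counts turned to 68 above and 45 below with median-of-ratios factors.

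hsa-miR-215 had the highest ratio. This miRNA is enriched in liver and intestine and is induced by p53. Subclone1 held 211 counts of it (59.1 CPM) and subclone2 627 (137 CPM), against 21.8 CPM in the parent library. The log2 ratio between the subclones was 1.21 (95% interval 0.99 to 1.45), and the 3 levels did not overlap within counting error. The mature strand maps to chr1:220117916-220117936 (GRCh38, minus strand), and the annotation shows no host gene there.

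Its relative hsa-miR-192-5p was far more abundant in read counts and had a ratio nearer to 1. It held 215131 counts in subclone1 and 315506 in subclone2 (60246 and 69068 CPM), a log2 ratio of 0.20 (0.19 to 0.21). For each count of hsa-miR-215 there were 1020 counts of hsa-miR-192-5p in subclone1, 503 in subclone2 and 851 in the parent. The share of hsa-miR-215 in the pair was 0.0980% in subclone1 (0.0852 to 0.112), 0.198% in subclone2 (0.183 to 0.214) and 0.117% in the parent (0.1005 to 0.136). Since the pair shares 18 bases, a small fraction of misassigned hsa-miR-192-5p reads would be large beside hsa-miR-215, and its part in the result was not tested.

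Hairpins of miR-194 stand beside both of these genes, MIR194-1 near MIR215 on chromosome 1 and MIR194-2 near MIR192 on chromosome 11. The mature strand hsa-miR-194-5p, which either hairpin can give, held 967 counts in subclone1 and 1201 in subclone2 (271 and 263 CPM, log2 ratio -0.04, interval -0.17 to 0.08). Its rarer partner hsa-miR-194-3p was just above the minimum level, with 27 and 57 counts (log2 ratio 0.71, interval 0.04 to 1.44). All 4 kept members of this group thus lay above the median of all kept miRNAs, with a group median of 0.45 beside -0.17 over all kept miRNAs. However, hsa-miR-194-3p (7.56 and 12.5 CPM) passed the minimum only through subclone2, where it was high. With at least 10 CPM required in both libraries the group median was 0.20, beside -0.16 over all miRNAs kept by that rule. Of the 4 members 1 was called, beside 5.76% of all kept miRNAs.

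hsa-miR-146a-5p, which NF-κB induces and which represses the signalling proteins TRAF6 and IRAK1, was the second of the miRNAs higher in subclone2. It held 105 counts in subclone1 (29.4 CPM) and 305 in subclone2 (66.8 CPM), and 14.05 CPM in the parent. The log2 ratio was 1.18 (0.86 to 1.52). Its family member hsa-miR-146b-5p had the opposite direction, with 265 and 197 counts (74.2 and 43.1 CPM, log2 ratio -0.78, interval -1.06 to -0.51) and 99.0 CPM in the parent.

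In assigned read counts, the leading member of the 146 pair therefore differed between the subclones. Since the pair shares 17 consecutive bases, misassigned reads would change the shares below, and their part in the result was not tested. hsa-miR-146a-5p made up 28.4% of the pair in subclone1 (23.8 to 33.3), 60.8% in subclone2 (56.3 to 65.1) and 12.4% in the parent (10.3 to 14.8). Summed over the listed 146 names, the level was 104 CPM in subclone1 and 110 CPM in subclone2, a log2 ratio of 0.08 (-0.12 to 0.28). Both strands have the seed shown above, and the genes lie apart, MIR146A on chromosome 5 in an exon of MIR3142HG and MIR146B on chromosome 10 in no annotated host. Of the 28 seeds with at least 2 kept miRNAs, this one had the widest gap between its members (1.96 on the log2 scale).

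hsa-miR-625-3p was the third. Subclone1 held 31 counts (8.68 CPM) and subclone2 86 (18.8 CPM), and the parent library stood highest with 29.2 CPM. The log2 ratio was 1.10 (0.51 to 1.76), a wide interval at these counts. MIR625 lies on chromosome 14 in an intron of FUT8, the gene of the core fucosyltransferase.

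Of the miRNAs lower in subclone2, hsa-miR-1307-5p had the largest ratio. It held 181 counts (50.7 CPM) in subclone1 and 45 (9.85 CPM) in subclone2, a log2 ratio of -2.35 (-2.87 to -1.89) or 5.10-fold, and was the only called miRNA past 4-fold. The parent level was 5.95 CPM, and the parent and subclone2 intervals (4.37 to 7.91 and 7.19 to 13.2 CPM) overlapped. MIR1307 lies in an exon of ATP5MD, which encodes a small subunit of the mitochondrial ATP synthase, on chromosome 10.

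hsa-miR-210, the miRNA best known as a target of hypoxia-inducible factor, held 203 counts (56.8 CPM) in subclone1 and 93 (20.4 CPM) in subclone2. The log2 ratio was -1.48 (-1.85 to -1.12). The parent level, 23.3 CPM, was close to that of subclone2, so subclone1 stood apart. MIR210 lies in an intron of MIR210HG on chromosome 11.

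hsa-miR-331-3p, which has ERBB2 among its reported targets, was the most abundant called miRNA. It held 720 counts (202 CPM) in subclone1, 401 (87.8 CPM) in subclone2 and 33.8 CPM in the parent. The log2 ratio was -1.20 (-1.38 to -1.02). Both subclones lay above the parent, and subclone1 was the highest of the 3. With median-of-ratios factors its ratio was -0.96, no longer 2-fold.

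hsa-miR-152, a regulator of the DNA methyltransferase DNMT1, held 503 counts (141 CPM) in subclone1 and 288 (63.0 CPM) in subclone2, against 44.9 CPM in the parent. The log2 ratio was -1.16 (-1.37 to -0.95), and -0.97 with TMM factors and -0.92 with median-of-ratios factors, so this call was lost under both. Its relative hsa-miR-148b-3p lay on the same side at 173 and 123 CPM (log2 ratio -0.49, interval -0.66 to -0.33). The share of hsa-miR-152 in the pair was 44.8% in subclone1, 33.9% in subclone2 and 23.0% in the parent. Their genes lie in introns of the paralogues COPZ2 and COPZ1, on chromosomes 17 and 12.

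Both kept members of the miR-378 family, which acts in energy metabolism, were lower. hsa-miR-378c held 107 counts (30.0 CPM) in subclone1 and 43 (9.41 CPM) in subclone2, a log2 ratio of -1.66 (-2.22 to -1.15), and the parent level was 8.86 CPM. hsa-miR-378a-3p, transcribed from an intron of PPARGC1B, held 402 and 252 CPM (log2 ratio -0.67, interval -0.79 to -0.56) and was not called. Counts of hsa-miR-378c per pair made up 6.93% in subclone1, 3.60% in subclone2 and 2.05% in the parent. hsa-miR-378c passed the minimum only through subclone1, where it was high. The pair shares 20 consecutive bases, so its members cannot count as separate observations.

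hsa-miR-1 is a muscle miRNA and is usually made together with miR-133a. It held 77 counts (21.6 CPM) in subclone1 and 32 (7.01 CPM) in subclone2, with 6.71 CPM in the parent. The log2 ratio was -1.61 (-2.26 to -1.01). Beside it hsa-miR-133a held 1 count in each library, hsa-miR-133b and both miR-208 names 0, and hsa-miR-206 5 and 3 counts in the subclones. The other muscle markers were thus at or near 0 while hsa-miR-1 was detected in all 3 libraries. hsa-miR-1254 held 62 and 36 counts (17.4 and 7.88 CPM, log2 ratio -1.13, interval -1.77 to -0.52) and 12.0 CPM in the parent, and it was lost as a call under each of the 3 other scalings.

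The last of the lower group was hsa-miR-15b-3p, the rarer strand of a hairpin in an intron of SMC4. It held 60 counts (16.8 CPM) in subclone1 and 29 (6.35 CPM) in subclone2, a log2 ratio of -1.39 (-2.10 to -0.74). The parent held 18.5 CPM, so here subclone1 and the parent were alike and subclone2 stood apart. The main strand hsa-miR-15b-5p, a repressor of cell cycle genes and BCL2, held 107 and 96.3 CPM (log2 ratio -0.15, interval -0.35 to 0.05).

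**Figure D2:**
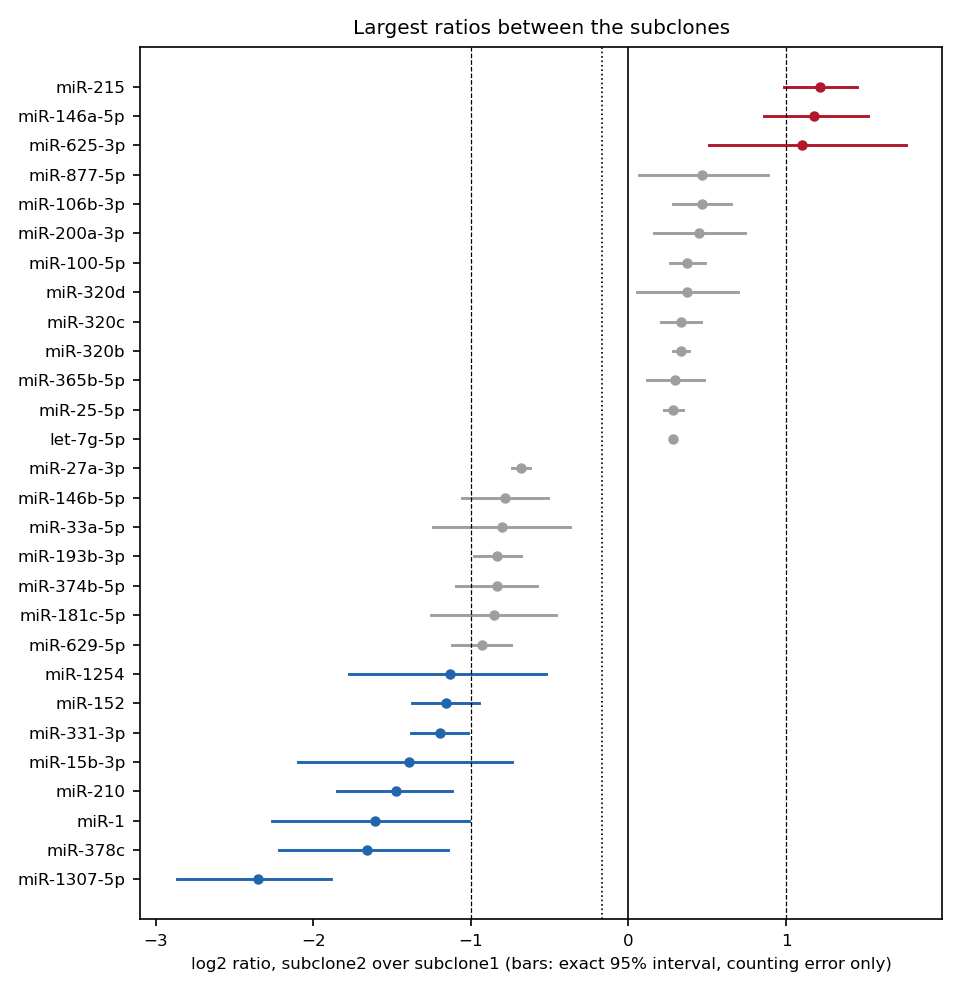
Points are log2 ratios of subclone2 over subclone1 (x axis) for every called miRNA and for the largest ratios in each direction among miRNAs whose interval excludes 1 and whose higher library holds at least 100 counts. Bars are exact 95% intervals (counting error only), red is called higher, blue called lower and grey not called, the dashed lines mark 2-fold, the solid line a ratio of 1 and the dotted line the median of all kept miRNAs at -0.17. Among the miRNAs shown, the next ratio after the 3 called higher is 0.47, whereas uncalled miRNAs on the lower side reach -0.93. Uncalled kept miRNAs under 100 counts, not shown, reach 0.71 (hsa-miR-194-3p) and -0.99 (hsa-miR-19b-3p). All these ratios move up together under the other scalings.

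Set beside the parent level, the 11 called miRNAs did not share 1 pattern. Subclone1 was the highest of the 3 libraries for 7 of them and subclone2 for 2 (hsa-miR-215 and hsa-miR-146a-5p), and the parent was the highest for hsa-miR-625-3p and hsa-miR-15b-3p. In 7 the subclone1 level was farther from the parent, on the log scale, and in 4 the subclone2 level. For 5 miRNAs, hsa-miR-1, hsa-miR-210, hsa-miR-378c, hsa-miR-1254 and hsa-miR-1307-5p, the intervals of subclone2 and the parent overlapped. For 2, hsa-miR-15b-3p and hsa-miR-1254, those of subclone1 and the parent did. None of these counts is set beside the same count over all kept miRNAs, so they are not read as a trait of the called miRNAs. A called miRNA that is highest in subclone1 is called lower in subclone2 by definition. The single lower miRNA for which the subclone1 level was not the top of the 3 was hsa-miR-15b-3p. All the lower miRNAs except hsa-miR-152, hsa-miR-210 and hsa-miR-331-3p passed the minimum only through subclone1, which favours a high subclone1 level among them.

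**Figure D3:**
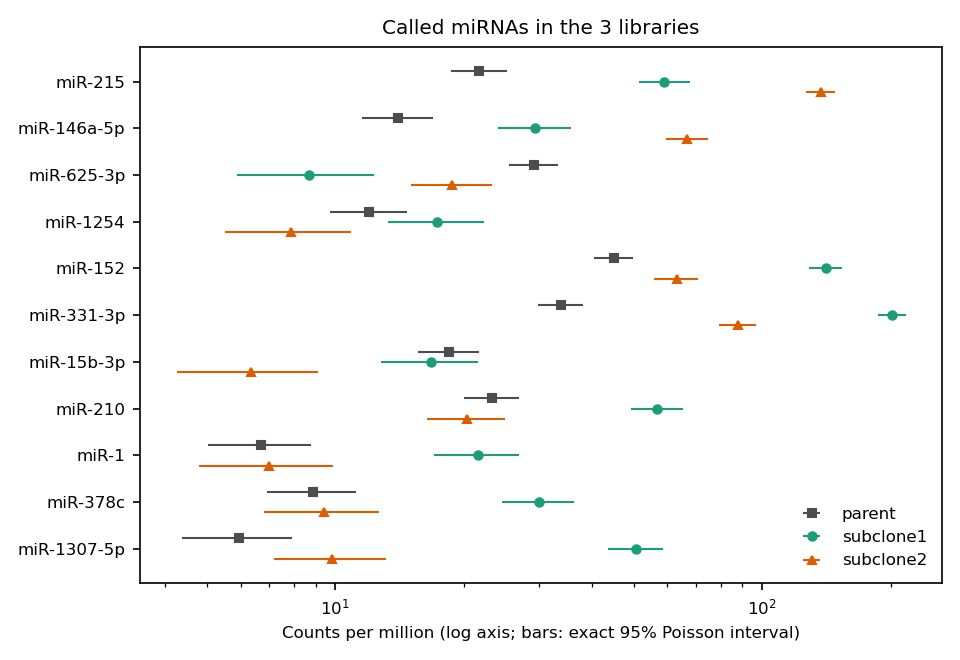
Levels of the 11 called miRNAs in CPM (x axis, log scale) in the parent (squares), subclone1 (circles) and subclone2 (triangles), with exact 95% Poisson intervals as bars. hsa-miR-215 and hsa-miR-146a-5p stand in the order parent, subclone1, subclone2, whereas in hsa-miR-378c, hsa-miR-1 and hsa-miR-210 the parent and subclone2 lie together below subclone1.

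Among the abundant miRNAs the differences were small in ratio but large in reads. The 5 leading miRNAs of both subclones were hsa-let-7f-5p, hsa-let-7a-5p, hsa-let-7b-5p, hsa-miR-222-3p and hsa-miR-192-5p. hsa-miR-222-3p held 245373 counts in subclone1 and 245559 in subclone2, which was 6.87% and 5.38% of each library and the largest shift, -1.50 percentage points. hsa-miR-221-3p moved by -0.52 points and hsa-miR-103a-3p by -0.27. Upwards, hsa-miR-192-5p moved by 0.88 points, hsa-let-7a-5p by 0.57 and hsa-let-7f-5p by 0.50. These shares compare read counts, since the ligation of adapters favours some miRNA ends over others.

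miR-221 and miR-222, neighbours on the X chromosome that repress the cell cycle inhibitor CDKN1B, kept their proportion to each other. The log2 ratios were -0.36 (-0.38 to -0.35) for hsa-miR-221-3p and -0.35 (-0.36 to -0.35) for hsa-miR-222-3p. The 5p strand hsa-miR-221-5p lay above the median of all kept miRNAs at -0.08 (-0.13 to -0.03). In sum the cluster held 93584 CPM in subclone1, 73373 in subclone2 and 138570 in the parent. The subclone2 level was thus the lowest of the 3.

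The let-7 family, which represses RAS and HMGA2, held 670825 CPM in subclone1, 691470 in subclone2 and 668977 in the parent. Of its 10 kept members 9 lay above the median of all kept miRNAs, from -0.24 for hsa-let-7d-3p to 0.28 (0.26 to 0.29) for hsa-let-7g-5p. The family median was 0.03 and no member was called. Several members differ at few bases, and hsa-let-7a-5p, hsa-let-7b-5p, hsa-let-7c, hsa-let-7g-5p and hsa-let-7i-5p each share at least 16 consecutive bases with another, so reads can have been exchanged between them.

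The miR-181 family, studied in HCC cells with stem cell features, lay wholly below. All 6 kept members were below the median of all kept miRNAs, from -0.85 (-1.26 to -0.46) for hsa-miR-181c-5p to -0.18 (-0.53 to 0.17) for hsa-miR-181a-3p, with a family median of -0.60 and no call. The main strand hsa-miR-181a-5p held 1957 CPM in subclone1, 1224 in subclone2 and 1849 in the parent (log2 ratio -0.68, interval -0.73 to -0.63). In sum the family held 3170 CPM in subclone1, 2088 in subclone2 and 2930 in the parent. The 4 strands that share the seed, shown here with it in capitals because they come from separate loci on chromosomes 1, 9 and 19, all had intervals below 0 when scaled by the library total.
hsa-miR-181a-5p: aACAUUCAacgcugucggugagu
hsa-miR-181b-5p: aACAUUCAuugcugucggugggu
hsa-miR-181c-5p: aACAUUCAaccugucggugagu
hsa-miR-181d: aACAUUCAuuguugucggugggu

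The strands hsa-miR-181b-5p and hsa-miR-181d had log2 ratios of -0.56 (-0.64 to -0.48) and -0.33 (-0.45 to -0.21). The longest run of bases shared among the 4 was 12, between hsa-miR-181a-5p and hsa-miR-181c-5p.

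The miR-23/miR-27/miR-24 hairpins form a cluster on chromosome 9 and another on chromosome 19. Of the 8 kept strands 4 lay above the median and 4 below, with a median of -0.19. The 3p strands of miR-27, which represses the fat cell regulator PPARG, had the lowest ratios of the group. hsa-miR-27a-3p held 1590 CPM in subclone1 and 992 in subclone2 (log2 ratio -0.68, interval -0.74 to -0.62), and hsa-miR-27b-3p 1401 and 961 CPM (-0.54, interval -0.60 to -0.48). Of the other strands, hsa-miR-23a-5p stood at -0.52, hsa-miR-23a-3p at -0.23, hsa-miR-23b-3p at -0.16, hsa-miR-24-3p and hsa-miR-27b-5p at -0.12, and hsa-miR-23b-5p at 0.18. The parent held 962 and 984 CPM of the miR-27 3p strands, so subclone1 was the highest for both. The miR-27 3p strands share 18 bases, as do the miR-23 3p strands, and are uncertain as single names, but in sum hsa-miR-27a-3p and hsa-miR-27b-3p held 2990 CPM in subclone1 and 1953 in subclone2.

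Similarly, strands of miR-193 and miR-365 come from a locus on chromosome 16 and another on chromosome 17. Of 8 kept strands 7 lay below the median, with a group median of -0.52. hsa-miR-193b-3p was the lowest at 252 and 141 CPM (-0.83, interval -0.98 to -0.69), and hsa-miR-193b-5p, hsa-miR-193a-3p and hsa-miR-193a-5p had ratios of -0.49, -0.55 and -0.42. The exception was hsa-miR-365b-5p with 0.30 (0.12 to 0.48). The names hsa-miR-365a-3p and hsa-miR-365b-3p have the same sequence and held the same counts, 285 and 236, so they are 1 measurement.

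A cluster on the X chromosome in introns of CLCN5, called here by its member miR-532, had 5 of 6 kept strands below the median and a group median of -0.44. hsa-miR-660-5p was the lowest at 58.0 and 36.3 CPM (-0.67, interval -0.98 to -0.37), and hsa-miR-532-3p the highest at 0.17 (-0.28 to 0.64). In sum the cluster held 745 CPM in subclone1, 535 in subclone2 and 623 in the parent.

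**Figure D4:**
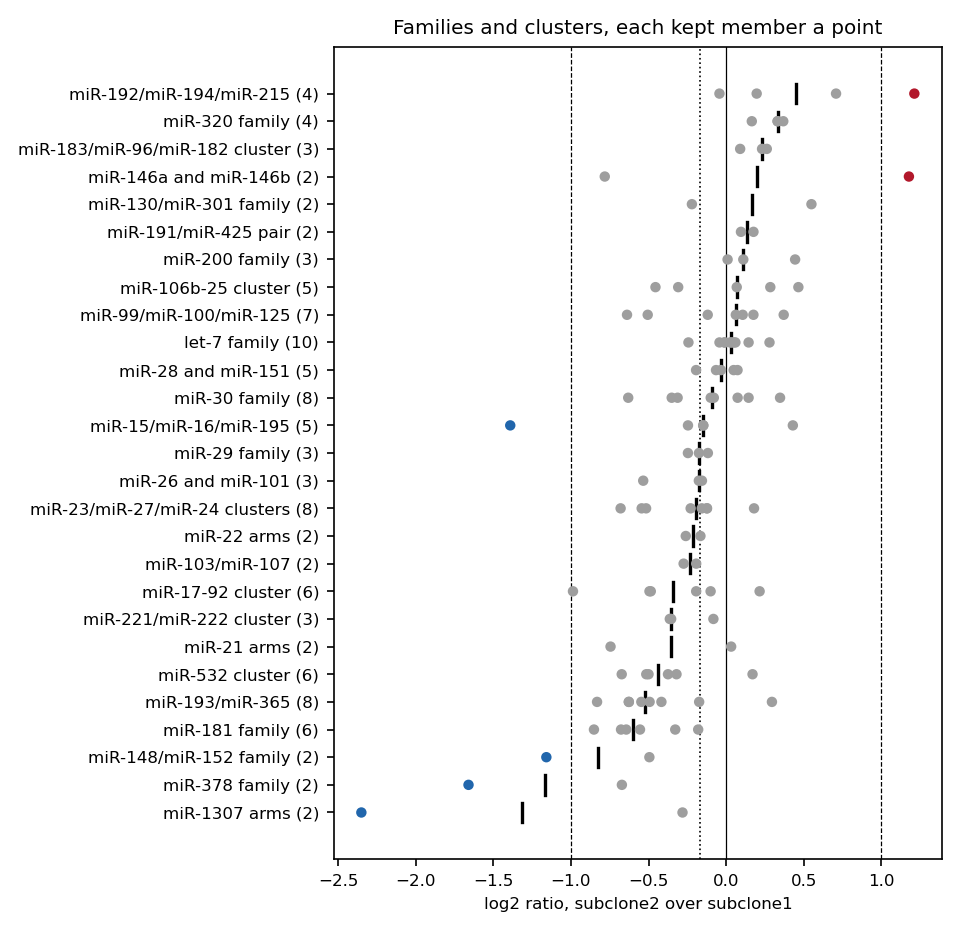
Log2 ratios of subclone2 over subclone1 (x axis) for the kept members of each family or cluster with at least 2 of them (number in brackets), ordered by the median, which is the black bar. Red is called higher, blue called lower, grey not called, and the dotted line is the median of all kept miRNAs (-0.17). Among groups with at least 3 kept members, the miR-181 family lies wholly left of that line. The miR-320, miR-200, miR-183/miR-96/miR-182 and miR-192/miR-194/miR-215 groups lie wholly right of it. Several groups of 2 also lie on 1 side, such as miR-378 on the left and miR-191/miR-425 on the right. In miR-378, hsa-miR-378c was kept only through subclone1.

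The miR-200 family keeps epithelial cells epithelial by repressing ZEB1 and ZEB2. All 3 kept members lay above the median. hsa-miR-200a-3p held 160 counts in subclone1 and 279 in subclone2 (44.8 and 61.1 CPM, log2 ratio 0.44, interval 0.16 to 0.74), with 27.8 CPM in the parent. hsa-miR-200b-3p and hsa-miR-200c-3p had ratios of 0.11 (-0.30 to 0.53) and 0.01 (-0.32 to 0.35). In sum the listed names held 120 CPM in subclone1, 141 in subclone2 and 79.6 in the parent. Both subclones stood above the parent.

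The miR-320 family, made without the usual first cut of the precursor by Drosha, lay above the median in all 4 kept members. hsa-miR-320a, the main one, held 22770 and 25541 CPM (0.17, interval 0.15 to 0.18). hsa-miR-320b, hsa-miR-320c and hsa-miR-320d had ratios of 0.33, 0.33 and 0.37, a spread of 0.04, and share 18 or 19 consecutive bases, so that they cannot count as separate observations. In the miR-183/miR-96/miR-182 cluster, known from sensory organs and raised in many carcinomas, the ratios were 0.26 for hsa-miR-183-5p, 0.09 for hsa-miR-96-5p and 0.23 (0.07 to 0.39) for hsa-miR-182-5p. The sum of that cluster was 228 CPM in subclone1, 265 in subclone2 and 303 in the parent.

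Other families were spread around the centre. Of the 6 kept strands of the oncogenic miR-17-92 cluster 2 lay above the median and 4 below, from -0.99 (-1.57 to -0.43) for hsa-miR-19b-3p to 0.22 (0.00 to 0.43) for hsa-miR-92a-1-5p. In the related miR-106b-25 cluster, in introns of MCM7, 3 of 5 lay above. The miR-30 family had 5 of 8 above, the miR-99/miR-100/miR-125 group 5 of 7, the miR-28 and miR-151 group 4 of 5, and the miR-15/miR-16/miR-195 group 3 of 5. In the miR-29 family, which represses collagens, 1 of 3 lay above, with ratios from -0.25 for hsa-miR-29b-3p to -0.12 for hsa-miR-29a-3p. No member of these groups other than hsa-miR-15b-3p was called.

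Small groups were as follows. hsa-miR-103a-3p and hsa-miR-107, from introns of the PANK genes, had ratios of -0.27 and -0.19 and share 21 bases. hsa-miR-191-5p and hsa-miR-425-5p had ratios of 0.10 and 0.18. hsa-miR-26b-5p stood at -0.53 (-0.63 to -0.43), below hsa-miR-26a-5p at -0.18 (-0.29 to -0.06). hsa-miR-130b-3p had -0.22 and hsa-miR-301a-5p 0.55, each with an interval including 0 (-0.52 to 0.09 and -0.05 to 1.19). hsa-miR-10a-5p, from the HOXB locus, held 613 CPM in subclone1, 696 in subclone2 and 178 in the parent (0.18, interval 0.10 to 0.26). hsa-miR-675-5p, cut from the H19 RNA, held 27.4, 32.6 and 5.69 CPM in the same order (0.25, interval -0.13 to 0.63).

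Of 33 listed strands of single miRNAs known from work on metastasis 10 were kept, and 1 of these, hsa-miR-210, was called, beside 5.76% of all kept miRNAs. Their median was -0.17, the same as over all kept miRNAs, with 5 above and 5 below. hsa-miR-21-5p, which is raised in many carcinomas, held 32209 and 32945 CPM (0.03, interval 0.02 to 0.04), and hsa-miR-31-5p 608 and 624 CPM (0.04, interval -0.04 to 0.12). hsa-miR-151a-5p and hsa-miR-151a-3p had ratios of -0.06 and 0.07, and hsa-miR-101-3p, a repressor of EZH2, -0.16. hsa-miR-34a-5p, a p53 target, held 59 and 48 counts (16.5 and 10.5 CPM, -0.65, interval -1.23 to -0.08), below the 32.3 CPM of the parent. hsa-miR-139-3p had -0.49 (-0.88 to -0.09).

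Several of the other listed names were too rare to compare. hsa-miR-10b-5p held 1 and 0 counts, hsa-miR-155-5p 1 and 0, hsa-miR-9-5p 4 and 2, hsa-miR-126-3p 1 and 2, and both strands of miR-205 and miR-373 held 0. A count of 0 allowed up to 0.840 CPM in subclone1 and 0.657 CPM in subclone2 (3 counts of the total). hsa-miR-335-5p, at 33 and 43 counts (9.24 and 9.41 CPM), lay just under the minimum level. hsa-miR-486-5p, a red blood cell miRNA, held 35 and 70 counts (log2 ratio 0.63, interval 0.04 to 1.27), whereas hsa-miR-451a held 1 count in each subclone and both arms of miR-150 held 0 in the subclones.

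Among the remaining large ratios of miRNAs that reached 100 counts in a subclone, the lower side held hsa-miR-629-5p at 162 and 85.2 CPM (-0.93, interval -1.12 to -0.74), hsa-miR-374b-5p at 85.1 and 47.7 CPM (-0.83) and hsa-miR-33a-5p at 30.2 and 17.3 CPM (-0.80, interval -1.24 to -0.37). The last is encoded in an intron of SREBF2, the gene of a cholesterol regulator, and represses the cholesterol exporter ABCA1. On the higher side were hsa-miR-877-5p at 22.4 and 31.1 CPM (0.47, interval 0.07 to 0.89), spliced from ABCF1, and hsa-miR-100-5p at 299 and 387 CPM (0.37, interval 0.26 to 0.48). Between 1.5-fold and 2-fold 23 miRNAs were lower and 2 higher, a split that follows the scaling in the same way as the median.

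Both strands of a hairpin were kept in 38 pairs. Some main strands in them, such as hsa-miR-16-5p and hsa-miR-181a-5p, can also come from another hairpin. In 15 pairs both strands lay on the same side of the median of all kept miRNAs and in 23 they did not. The strands differed by under 0.5 on the log2 scale in 21 pairs and by over 1 in 4, with a median gap of 0.49. Those 4 were miR-1307, miR-625, miR-361 and miR-15b. In all of them but miR-361, 1 strand passed the minimum only through the library in which it was high, which favours a wide gap. In 20 pairs the exact 95% intervals of the 5p share did not overlap between the subclones.

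The widest gap was in miR-1307. Its 3p strand held 3101 and 3265 counts (868 and 715 CPM, log2 ratio -0.28, interval -0.35 to -0.21), so that the 5p strand made up 5.51% of the hairpin in subclone1 (4.76 to 6.35), 1.36% in subclone2 (0.99 to 1.81) and 0.72% in the parent. The large ratio of hsa-miR-1307-5p therefore did not extend to its partner.

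In miR-625 the leading strand differed between the subclones. hsa-miR-625-5p held 55 and 57 counts (15.4 and 12.5 CPM, log2 ratio -0.30, interval -0.86 to 0.26), and its share was 64.0% in subclone1 (52.9 to 74.0), 39.9% in subclone2 (31.8 to 48.4) and 32.7% in the parent. The hairpin is shown because its strands, in capitals, face each other with 20 bases of exact reverse complement, whereas those of miR-15b do so over 7. MIR625 is at chr14:65471102-65471186 and MIR15B at chr3:160404588-160404685 (GRCh38, plus strand).
MIR625: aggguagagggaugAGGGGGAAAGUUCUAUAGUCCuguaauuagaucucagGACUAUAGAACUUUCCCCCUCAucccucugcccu
MIR15B: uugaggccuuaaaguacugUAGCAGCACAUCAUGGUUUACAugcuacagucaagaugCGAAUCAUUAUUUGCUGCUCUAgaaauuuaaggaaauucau

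In miR-15b the 5p share was 86.4% in subclone1 (82.8 to 89.5), 93.8% in subclone2 (91.2 to 95.8) and 87.4% in the parent. Among more abundant hairpins, miR-25 had a 5p share of 24.0% in subclone1 (23.3 to 24.6), 34.5% in subclone2 (33.8 to 35.2) and 36.9% in the parent. Its strands moved to opposite sides, hsa-miR-25-5p with a log2 ratio of 0.29 (0.23 to 0.34) and hsa-miR-25-3p with -0.46 (-0.49 to -0.42). The neighbouring hairpin of miR-106b shifted the other way, from a 5p share of 63.1% in subclone1 to 49.9% in subclone2, with 64.0% in the parent. hsa-miR-106b-3p, at 105 and 145 CPM, had a log2 ratio of 0.47 (0.28 to 0.65) and hsa-miR-106b-5p -0.31 (-0.47 to -0.15).

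**Figure D5:**
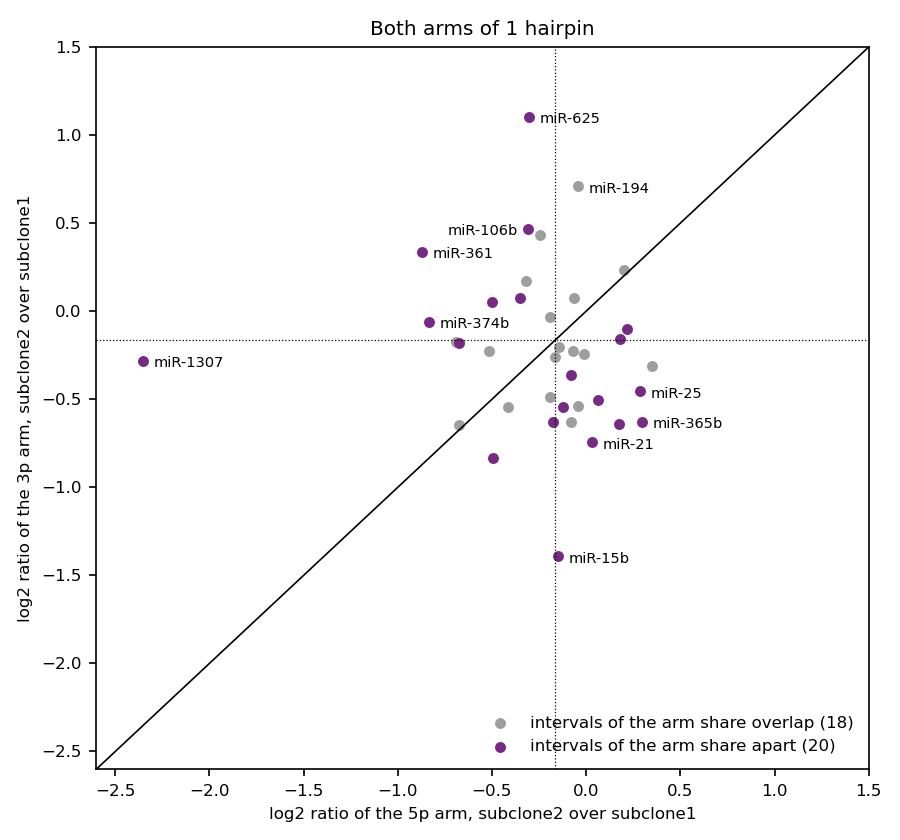
Each point is a pair of kept strands of 1 hairpin, with the log2 ratio of the 5p strand on the x axis and of the 3p strand on the y axis (subclone2 over subclone1). The solid line marks equal ratios and the dotted lines the median of all kept miRNAs (-0.17). Purple points are the 20 pairs whose intervals of the 5p share lie apart, and miR-1307, miR-625 and miR-15b lie farthest from the line together with miR-361. In miR-1307, miR-625 and miR-15b, 1 strand passed the minimum only through the library in which it was high.

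Other pairs with a wide gap were miR-361, with a 5p share of 72.2% in subclone1 and 52.8% in subclone2, and miR-374b, with 81.3% and 71.7%. The gaps of miR-365b (59.0% and 73.2%) and miR-125b-2 (85.1% and 90.9%) were wider than that of miR-374b. The miR-365a and miR-365b pairs use the same 3p counts, so they are not separate observations among the pairs with shares apart. For miR-21 the 3p strand was a trace in both, 84 and 64 counts beside 115012 and 150494 of the 5p strand. The ratio of hsa-miR-21-3p was -0.74 (-1.24 to -0.26).

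A few features that the choice of miRNAs did not use were set against the ratios. A mature sequence was matched for 168 of the 191 names. GC share and log2 ratio had a Pearson r of -0.04 and a Spearman rho of -0.02 across these 168 miRNAs, which share their libraries and are not independent. The median ratio was -0.17 for the 28 miRNAs with a GC share under 40%, -0.19 for the 57 from 40% to under 50% and -0.18 for the 83 at 50% and above. It was -0.12 for 79 5p strands and -0.27 for 66 3p strands. By first base it was -0.13 for U (79 miRNAs), -0.27 for A (47), -0.21 for C (32) and -0.25 for G (10). The quartiles of the ratios over all kept miRNAs were -0.48 and 0.07. Medians of subsets tend to lie between them in any case, and whether these features matter was not tested.

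Near the minimum level, the kept miRNAs with the lowest means were hsa-miR-194-3p, hsa-miR-548x-3p and hsa-miR-3934, with means of 10.02, 10.3 and 10.5 CPM and log2 ratios of 0.71, -0.42 and -0.36. Just under it were hsa-miR-550a-3p, hsa-miR-425-3p and hsa-miR-4652-5p, with means of 9.86, 9.83 and 9.74 CPM and log2 ratios of -0.07, 0.58 and -0.69. At this level 10 CPM stood for 35.7 counts in subclone1 and 45.7 in subclone2.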

How the data were processed

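Small RNA was measured in 3 HCCLM3 libraries made with the TruSeq Small RNA kit from 1 ug of total RNA. The authors deposited unscaled read counts for 1921 mature miRNA names in each library. CASAVA 1.4 and hg19 are named in the submitters' processing notes, with no role given. Trimming, aligner, mismatches, miRBase release and the treatment of shared reads are not given in the sources used here.

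Counts were scaled to the column sum and compared in Python 3.11.15 (scipy 1.17.1). The log2 ratio had 0.5 counts added to each library. Its interval is the exact 95% conditional binomial (Clopper-Pearson) interval, as for shares, and CPM carry exact Poisson intervals. A call needs 2-fold, an interval excluding 1 and a mean of at least 10 CPM. The steps were run on simulated Poisson counts with known ratios. These hold no spread between cultures or libraries, so they do not test the calls against that spread. TMM factors came from edgeR 4.0.16 in R 4.3.3 and served as an alternative only.

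Sequences and positions are RefSeq and GENCODE 29 annotation of GRCh38, not hg19. Names were matched as written, with 10 older names without an arm read as the current arm, and 168 of 191 matched. hsa-miR-365a-3p and hsa-miR-365b-3p held identical counts and were both kept.

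The miRNAs, lists and tests were chosen with earlier results of these data known. The miRNAs named in the text are the top 5 of each subclone, all called ones, the 12 largest ratios in each direction where a library held 100 counts or more, their partner strands, the extremes of each list (all members up to 4), the metastasis list, and those next to the minimum level. Other members of the families described, the marker miRNAs, hsa-miR-4454 and the miR-361 pair were named after their values were seen.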

Additional observations from a re-analysis of the deposited data

How the results depend on the processing

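No result reversed among the called miRNAs. Against the 11 calls reported (3 higher, 8 lower), a minimum of 100 CPM gave 2 (0 higher, 2 lower), no minimum 33 (5 and 28), at least 10 CPM in both libraries 5 (2 and 3, without the 6 named in the report), fold thresholds of 1.5 and 4 gave 36 (5 and 31) and 1 (0 and 1), and an interval wholly beyond 2-fold gave 5 (0 and 5). TMM factors gave 9 calls, median-of-ratios factors 8 (5 lower), the total without the 10 most abundant 10, a pseudocount of 5 counts 10, and counts summed by seed 8 (1 higher). Summed with their seed relatives, hsa-miR-215 (log2 ratio of the sum 0.20), hsa-miR-146a-5p (0.08), hsa-miR-378c (-0.72) and hsa-miR-152 (-0.74) were no longer called, and the other 7 were. The scalings lost hsa-miR-1254, hsa-miR-152 and hsa-miR-331-3p at most, and the pseudocount lost hsa-miR-625-3p (0.98), whose higher library holds 86 counts. The calls without a minimum level include names with few counts, which depth limits. The median log2 ratio was 0.0205 with TMM factors, 0.0776 with median-of-ratios factors and -0.0215 with the total without the 10 most abundant. Of 360 values for the named miRNAs 7 lost a call, 0 gained one and 119 others moved by more than counting error, as did 21 of 108 list medians by more than their members' spread. No paired analysis was possible because a single library stands on either side, which also leaves no replicate to omit. The spread between cultures, extractions and library preparations was not measured, so it cannot be told apart from a difference between the strains.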

Other observations

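Among names under the minimum level of 10 CPM, 48 held at least 20 counts in the higher of both subclones. Of these 0 were at least 2-fold higher in subclone2 with an interval excluding 1, and 5 were lower, beside 1.57% higher and 4.19% lower among the kept miRNAs. The 5 were hsa-let-7i-3p with 20 counts in subclone1 and 8 in subclone2 (log2 ratio -1.63, interval -3.07 to -0.43), hsa-miR-1260b with 35 and 16 (-1.46, interval -2.44 to -0.59), hsa-miR-139-5p with 28 and 13 (-1.43, interval -2.53 to -0.47), hsa-miR-548h-5p with 28 and 15 (-1.23, interval -2.27 to -0.30) and hsa-miR-4435 with 21 and 12 (-1.14, interval -2.32 to -0.07). The intervals are wide, and that of hsa-miR-4435 ends close to 0. These ratios use the library total. The other scalings move all log2 ratios up by 0.14 to 0.24. Each of them takes hsa-miR-4435 under 2-fold, and median-of-ratios factors also take hsa-miR-548h-5p just under it, so the split depends on the scaling. hsa-miR-139-5p is the partner strand of hsa-miR-139-3p, which was kept with a ratio of -0.49, and its hairpin lies in an intron of PDE2A. The highest ratio in this group was 0.70 for hsa-miR-940, with 20 and 42 counts (interval -0.09 to 1.56).

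hsa-miR-4454 was near equal in the subclones, with 13.4 CPM in subclone1 and 14.2 CPM in subclone2 (log2 ratio 0.08, interval -0.48 to 0.65), whereas the parent library held 0.633 CPM of it.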
